A study of Mus musculus with 6 samples.

Results

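Toll-like receptors recognise molecules of microbes, and CD14 and MYD88 are, respectively, a co-receptor and an adaptor of the same pathway. The genes described here are the 8 receptors Tlr1, Tlr2, Tlr4, Tlr6, Tlr7, Tlr8, Tlr9 and Tlr13 with Cd14 and Myd88. They were taken by gene symbol and are 10 of the 31626 genes in each deposited table, and each symbol matched 1 row. No value was a failed estimate.

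The cells were common myeloid progenitors of C57Bl/6 mice, precursors of granulocytes and monocytes among other blood cells. They had been transformed by a retrovirus carrying MN1, a leukaemia oncogene, together with GFP (MSCV-MN1-IRES-GFP). Both groups were Dot1l flox/flox, carried the MN1 virus and were grown in the same medium (M3234 with FBS, IL3, IL6 and SCF). Cells of the 3 control libraries had received a control vector and those of the 3 Dot1l -/- libraries had received Cre, and all were sorted at day 7. The DOT1L enzyme methylates histone H3 at lysine 79, and the question was how the RNA of these genes differs once Dot1l is deleted. No library held Cre with an intact Dot1l gene, so an action of Cre itself cannot be told apart from the deletion. The labels do not say whether replicates were separate cultures or animals, so a p-value here reflects just the scatter among 6 libraries, which may be technical.

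As background, TLR4 binds lipopolysaccharide of Gram-negative bacteria through LY96 (MD-2), and CD14 hands the lipopolysaccharide over after LBP has taken it from the bacterium. TLR2 pairs with TLR1 or TLR6 to bind bacterial lipopeptides. TLR7, TLR8, TLR9 and TLR13 sit in endosomes, where TLR7, TLR8 and TLR13 read RNA and TLR9 reads DNA, and UNC93B1 carries them there. Every receptor described here signals through MYD88, which recruits the IRAK kinases and leads to NF-kB. Monocytes, macrophages and neutrophils are the myeloid cells best known for using these receptors.

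In 9 of the 10 genes, the level was higher in all 3 Dot1l-deleted libraries than in any control library, and in none was it lower in all of them. Myd88 was the exception. Among the 11924 genes tested, 10.7% were higher in all deleted libraries in the same way and 34.1% were lower. Among the 20568 genes above 0 in at least 1 library the share was 12.2%, and among the 4901 genes with a mean of 0.05 to 1 FPKM it was 19.9%. FPKM divides the fragments of a gene by its length and by the size of the library, so levels can be compared between genes. In a bulk sample, fewer cells of a type and less RNA per cell cannot be told apart. A gene was tested if its mean over the 6 libraries was at least 1 FPKM. Of the 10 genes, 7 passed that filter and Tlr8, Tlr9 and Tlr13 did not. Tlr1, Tlr2, Tlr4, Tlr6, Tlr7 and Cd14 rose (limma, Benjamini-Hochberg adjusted p under 0.05 over all tested genes), none fell, and Myd88 was not called. In the same test 19.7% of all tested genes were called, of which the rising ones were 7.43% of all tested genes and the falling ones 12.2%. The passing genes are not a free sample of the 10, because Tlr1 passed the filter only through its level in the deleted libraries. Slc15a3, Cxcl3, Il1r1, Il1r2, Ltf, Retnlg, Csf1r and Cd74, which are counted as called in the lists further on, had control means below 1 FPKM as well and entered the test in the same way.

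The deletion was visible in Dot1l itself. Dot1l was at 20.2, 22.6 and 19.6 FPKM in the controls and at 8.24, 8.17 and 5.80 FPKM in the libraries labelled Dot1l -/- (log2 fold change -1.39, adjusted p = 0.000124 by limma). The groups did not overlap. The third deleted library stood apart from the others: its 10 highest rows held 39.0% of its summed FPKM against 6.59% to 10.8% in the other libraries, and the median deviation of its genes from their mean over the 6 libraries was -0.37 on the log2 scale against 0.05 to 0.10 in the others. The median change of all tested genes was -0.16 on the log2(FPKM + 1) scale and 0.00 after the libraries were rescaled by the median of their gene ratios. Rescaled values are therefore given beside the deposited ones where calls differ, for lists and for named genes with a printed test result. With that scaling 7 of the 10 genes rose, Myd88 being added, where 45.3% of tested genes were called, 23.0% as higher and 22.3% as lower.

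**Figure D1:**
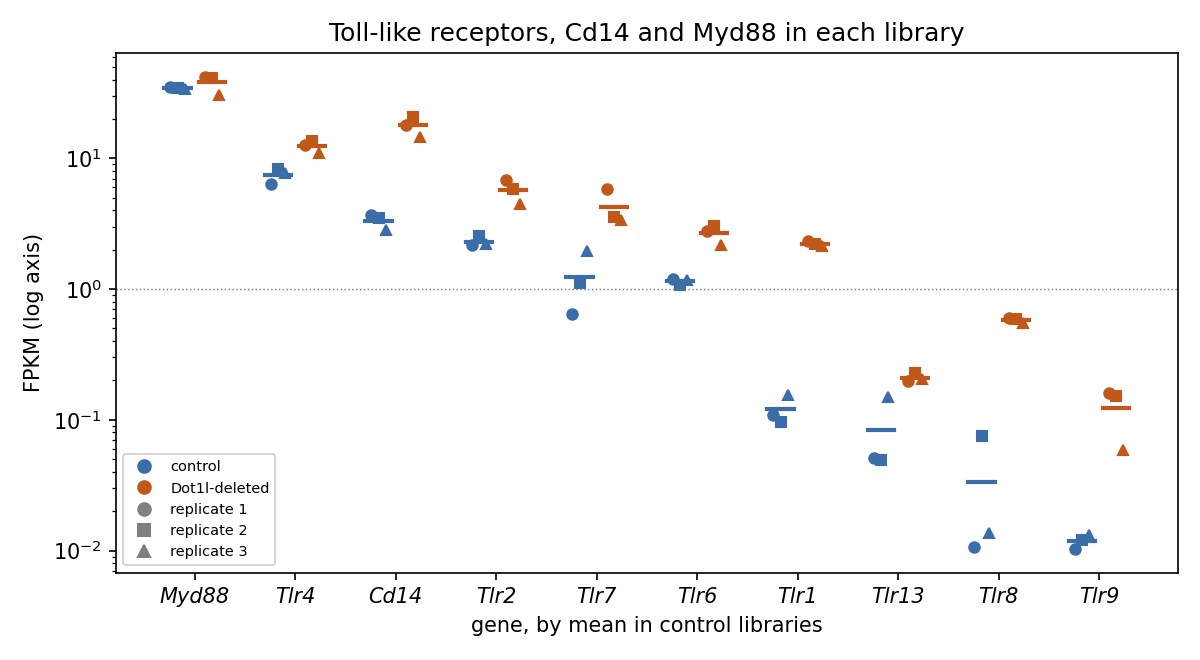
Level of the 10 genes in FPKM (logarithmic axis) in each of the 3 control and 3 Dot1l-deleted libraries. Each point is a library. In every gene but Myd88 the 3 deleted points lie above the 3 control points.

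Cd14, the co-receptor that delivers lipopolysaccharide to TLR4, had the largest fitted change of the 7 tested genes on the log2(FPKM + 1) scale. With a pseudocount of 0.1 the order was reversed, with 3.40 for Tlr1 and 2.38 for Cd14. Cd14 (ENSMUSG00000051439) was at 3.67, 3.50 and 2.84 FPKM in the controls and at 18.1, 20.9 and 14.6 FPKM after deletion. The lowest deleted library was far above the highest control. The means were 3.34 ± 0.438 and 17.9 ± 3.14 (SD, n = 3 each), a 5.35-fold higher level. The fitted log2 fold change of Cd14 was 2.11 (standard error, SE, 0.160, adjusted p = 7.47e-06 by limma). With rescaling it was 2.27. By rank of level, Cd14 was the third of the 10 genes in the controls and the second after deletion, when it lay above Tlr4.

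Tlr4, the lipopolysaccharide receptor, changed less. Its levels were 6.36, 8.36 and 7.78 FPKM in the controls and 12.6, 13.6 and 10.9 FPKM after deletion. The groups did not overlap, and the smallest gap was from 8.36 to 10.9 FPKM. The mean of Tlr4 (ENSMUSG00000039005) went from 7.50 ± 1.03 to 12.4 ± 1.35 FPKM, 1.65-fold higher. The fitted log2 fold change of Tlr4 was 0.65 (SE 0.147, adjusted p = 0.0102 by limma). Without the first control library it was 0.55 with an adjusted p of 0.0743, which was not called. That library had the lowest Tlr4 level.

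Within single libraries, the Tlr4 level was 1.73, 2.39 and 2.74 times that of Cd14 in the controls and 0.696, 0.649 and 0.745 times after deletion. A plain ratio of FPKM inside a library does not move with the scaling of that library. The log2 ratios tested here carry a pseudocount of 1, so they can move with it. The log2 ratio of Tlr4 to Cd14 (pseudocount 1) averaged 0.97 in the controls and -0.49 after deletion, a difference of -1.46. The exact permutation test (two-sided) cannot go below p = 0.1 with 3 libraries a group, and it gave p = 0.1 here (0.12 after adjustment over the 6 pairs compared). Ly96, whose protein binds lipopolysaccharide together with TLR4, was lower in all 3 deleted libraries. It was at 6.76, 7.48 and 6.27 FPKM in the controls and at 4.82, 5.03 and 4.43 FPKM after deletion. The log2 fold change of Ly96 was -0.44 (adjusted p = 0.0427 by limma) and -0.28 with rescaling (adjusted p = 0.0590), so its call did not hold under both. It was lost in 12 of the 19 alternative fits, among them those without any 1 of the control libraries (adjusted p = 0.175, 0.260 and 0.124) and without the first or the second deleted library. The ratio of Tlr4 to Ly96 was 0.942, 1.12 and 1.24 in control libraries against 2.61, 2.69 and 2.46 in deleted ones, without overlap (exact permutation p = 0.1). Lbp, the lipopolysaccharide-binding protein, rose from 8.29 ± 0.672 to 23.6 ± 3.81 FPKM (SD, n = 3 each; log2 fold change 1.40, adjusted p = 0.000104 by limma).

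**Figure D2:**
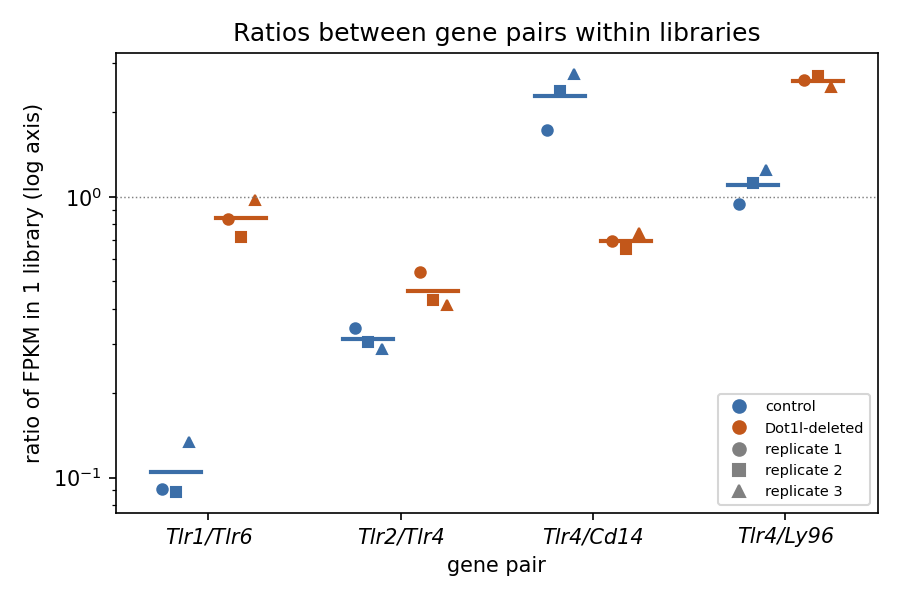
Ratios of FPKM of 4 gene pairs inside each library (logarithmic axis), controls and Dot1l-deleted libraries as separate points. The ratios of Tlr4 to Cd14, Tlr4 to Ly96, Tlr1 to Tlr6 and Tlr2 to Tlr4 do not overlap between groups.

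Tlr2 is the shared partner of the lipopeptide receptors. Tlr2 (ENSMUSG00000027995) was at 2.16, 2.54 and 2.23 FPKM in the controls and at 6.81, 5.83 and 4.48 FPKM after deletion. Every deleted library was above every control, and the deleted libraries differed more among themselves. The means were 2.31 ± 0.199 and 5.70 ± 1.17 FPKM, 2.47-fold apart (log2 fold change 1.004, SE 0.167, adjusted p = 0.00174 by limma). The ratio of Tlr2 to Tlr4 was 0.340, 0.304 and 0.287 in control libraries against 0.540, 0.430 and 0.410 in deleted ones, so inside each deleted library Tlr2 was a larger part of the pair (exact permutation p = 0.1, adjusted 0.12). Without the first deleted library that p was 0.2.

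The window of 250 bases before the RefSeq start of Tlr2 (chr3:83841609-83841858, minus strand, GRCm38.p6) is shown because it holds the letters of an NF-kB motif. NF-kB is the factor that the pathway itself activates.
Tlr2: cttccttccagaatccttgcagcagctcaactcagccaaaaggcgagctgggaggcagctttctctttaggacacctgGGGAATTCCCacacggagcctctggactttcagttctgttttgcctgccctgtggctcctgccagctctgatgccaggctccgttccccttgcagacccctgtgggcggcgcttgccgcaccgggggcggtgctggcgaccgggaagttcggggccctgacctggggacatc
The capitals mark the letters GGGANTTCC, which match on both strands, 172 to 163 bases before the start. Of 32851 mouse windows of this length, 1.43% hold that motif on either strand. The motifs named here were chosen after the sequences were seen, and a match is only a description of letters.

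Tlr1 and Tlr6 lie next to each other on chromosome 5 and are the 2 partners of Tlr2. Tlr1 (ENSMUSG00000044827) was at 0.109, 0.0959 and 0.156 FPKM in the controls and at 2.32, 2.20 and 2.12 FPKM after deletion. The control values were all low, and the deleted values were close to each other. The means were 0.120 ± 0.0316 and 2.21 ± 0.102 FPKM, an 18.4-fold difference. Its log2 fold change was 1.52 (SE 0.190, adjusted p = 0.000244 by limma), which understates the change of so low a gene. With any deleted library left out, Tlr1 fell below the filter and could not be tested.

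Tlr6 started from a higher level. Tlr6 (ENSMUSG00000051498) was at 1.20, 1.08 and 1.17 FPKM in the controls and at 2.80, 3.05 and 2.18 FPKM after deletion. The groups did not overlap. Its mean was 2.33-fold higher (1.15 ± 0.0647 against 2.68 ± 0.449 FPKM), and the fitted log2 difference was 0.77 (SE 0.174, adjusted p = 0.0104 by limma). Inside the libraries, the level of Tlr1 was 0.0908, 0.0891 and 0.134 times that of Tlr6 in the controls and 0.831, 0.720 and 0.974 times after deletion. The 2 genes were thus far apart before deletion and near each other after it. The log2 ratio with a pseudocount of 1 was higher by 0.75 after deletion (exact permutation p = 0.1, adjusted 0.12). That pseudocount shrinks the difference for genes this low: it was 2.26 with a pseudocount of 0.1 and 3.02 with none. In the GENCODE M21 transcripts, 14.8% of the 50-base stretches of Tlr1 also occur in Tlr6 and 12.3% of those of Tlr6 occur elsewhere, nearly all in Tlr1. The counting was made on another build, and the sources used here do not give how it split such fragments, so their separate levels are uncertain to that extent.

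The start of Tlr1 with a match (chr5:64933559-64933808, minus strand, GRCm38.p6) and the second start of Tlr6 (chr5:64959167-64959416, minus strand) are shown because both hold the letters AGGAAGT. That motif is of the type bound by PU.1, a factor of myeloid cells.
Tlr1: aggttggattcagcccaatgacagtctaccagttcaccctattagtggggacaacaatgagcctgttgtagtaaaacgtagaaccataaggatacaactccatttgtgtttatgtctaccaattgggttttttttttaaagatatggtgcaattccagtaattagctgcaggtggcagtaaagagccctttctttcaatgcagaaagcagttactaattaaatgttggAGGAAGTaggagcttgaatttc
Tlr6: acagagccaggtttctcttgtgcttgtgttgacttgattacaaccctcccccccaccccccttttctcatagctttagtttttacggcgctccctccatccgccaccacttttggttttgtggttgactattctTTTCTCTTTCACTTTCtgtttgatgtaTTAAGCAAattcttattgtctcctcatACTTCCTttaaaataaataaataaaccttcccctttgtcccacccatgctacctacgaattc
In Tlr1 the capitals mark AGGAAGT, 22 to 16 bases before the start. In Tlr6 the capitals mark, from left to right, 2 overlapping matches, on the other strand, of GAAA followed by any 2 bases and again GAAA (the letters of an interferon response element, ISRE, 116 to 101 bases before the start), TTGCNNAA on the other strand (of C/EBP type, 89 to 82 bases before) and AGGAAGT on the other strand (62 to 56 bases before). Of all windows, 7.69% hold AGGAAGT, 2.98% hold the ISRE letters and 9.56% hold TTGCNNAA. The other RefSeq start of each gene held none of the 5 motifs searched.

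Tlr7, the endosomal receptor of single-stranded RNA, was the only one of the 4 endosomal receptors above the filter. Tlr7 (ENSMUSG00000044583) was at 0.646, 1.12 and 1.95 FPKM in the controls and at 5.88, 3.54 and 3.39 FPKM after deletion. The groups did not overlap, but the controls spread over a wide range. The means were 1.24 ± 0.662 and 4.27 ± 1.39 FPKM, 3.45-fold apart (log2 fold change 1.24, SE 0.251, adjusted p = 0.00562 by limma). The SE was the largest of the 7 tested genes.

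Tlr8, the neighbour of Tlr7 on the X chromosome, was far lower. Tlr8 (ENSMUSG00000040522) was at 0.0107, 0.0756 and 0.0136 FPKM in the controls and at 0.597, 0.594 and 0.553 FPKM after deletion. The deleted libraries were nearly equal, and the highest control was far below them. The means were 0.0333 ± 0.0366 and 0.581 ± 0.0247 FPKM, 17.5-fold apart. The fitted log2 fold changes of Tlr8, Tlr9 and Tlr13 carry a pseudocount of 1, which understates the change of genes so low. Tested without a filter over 20568 genes, of which 13.2% were then called (6.52% higher, 6.68% lower), the log2 fold change of Tlr8 was 0.61 (SE 0.0379, adjusted p = 0.000645 by limma). The ratio of Tlr7 to Tlr8 was 60.3, 14.8 and 143 in control libraries against 9.85, 5.96 and 6.13 in deleted ones, lower in every deleted library. With a pseudocount of 1 the log2 ratio was instead higher by 0.63 after deletion with overlapping groups (exact permutation p = 0.3), so its direction depended on the pseudocount.

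Tlr9, the receptor of unmethylated DNA, had the lowest level of the 10 genes in both groups. Tlr9 (ENSMUSG00000045322) was at 0.0103, 0.0121 and 0.0131 FPKM in the controls and at 0.160, 0.153 and 0.0588 FPKM after deletion. The third deleted library was nearer to the controls than the others were. The means of Tlr9 were 10.5-fold apart. Without a filter, the log2 fold change of Tlr9 was 0.15 (adjusted p = 0.0596 by limma). The ratio of Tlr9 to Tlr7 was 0.0159, 0.0108 and 0.00669 in control libraries against 0.0273, 0.0432 and 0.0174 in deleted ones, without overlap. With a pseudocount of 1 its log2 value differed by -1.09 (exact permutation p = 0.1), so this direction also depended on the pseudocount. Tlr13 (ENSMUSG00000033777), the receptor of bacterial ribosomal RNA, was at 0.0508, 0.0496 and 0.151 FPKM in the controls and at 0.198, 0.229 and 0.203 FPKM after deletion. The third control came close to the deleted libraries. The means of Tlr13 were 2.51-fold apart, and its log2 fold change without a filter was 0.16 (adjusted p = 0.0647 by limma). With both rescaling and no filter, Tlr9 (adjusted p = 0.0137) and Tlr13 (adjusted p = 0.0330) were called higher, as were all 10 genes. In that fit, which was chosen after seeing the data, 30.0% of the genes were called, 16.7% as higher and 13.4% as lower.

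The window of Tlr9 (chr9:106222348-106222597, plus strand, GRCm38.p6) is shown as that of the lowest gene.
Tlr9: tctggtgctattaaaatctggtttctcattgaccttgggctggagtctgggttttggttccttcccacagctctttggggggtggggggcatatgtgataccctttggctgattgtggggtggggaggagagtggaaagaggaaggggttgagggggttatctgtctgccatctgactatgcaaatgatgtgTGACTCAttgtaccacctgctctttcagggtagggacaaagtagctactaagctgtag
The capitals mark TGANTCA, the letters of an AP-1 motif, 58 to 52 bases before the start, which 6.75% of all windows hold. The window of Tlr13 held none of the motifs and that of Tlr8 held TTGCNNAA.

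Fragment numbers show how much evidence lies behind the low levels. In FPKM that come from whole fragments, the values of a gene are whole multiples of 1 fragment, and steps between low genes gave relative depths of 0.739 to 0.898 for the other 5 libraries against the first control. Of 4214 low genes, 79.6% then came out whole within 0.02 of a fragment in every library. Among the 10 genes, 6 came out whole, and Tlr4, Tlr7, Tlr8 and Myd88 did not. The search stopped at a fixed number of fragments, which Myd88 and probably Tlr4 exceed at their levels. For these genes the outcome therefore does not tell whether their values were whole. All numbers of a gene could be too small by a common factor, and the intervals cover counting error only.

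Tlr1 rested on 8, 6 and 9 fragments in the controls and on 153, 119 and 136 after deletion. Corrected for depth, the ratio was 18.7 (95% counting interval 12.3 to 29.8). Tlr9 rested on 1 fragment in each control and on 14, 11 and 5 after deletion, so its ratio of 10.5 had an interval of 3.27 to 53.9. Tlr13 rested on 6, 5 and 14 fragments against 21, 20 and 21 (ratio 2.61, interval 1.62 to 4.33). Tlr6 had 68 to 89 fragments in the controls and 141 to 186 after deletion (ratio 2.31, interval 1.97 to 2.72). Cd14 had 95 to 156 and 543 to 691 (ratio 5.26, interval 4.71 to 5.89), and Tlr2 had 142 to 175 and 316 to 494 (ratio 2.48, interval 2.23 to 2.76). The intervals of Tlr1 and Cd14 lay apart from those of Tlr2, Tlr6 and Tlr13, whose own intervals overlapped.

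**Figure D3:**
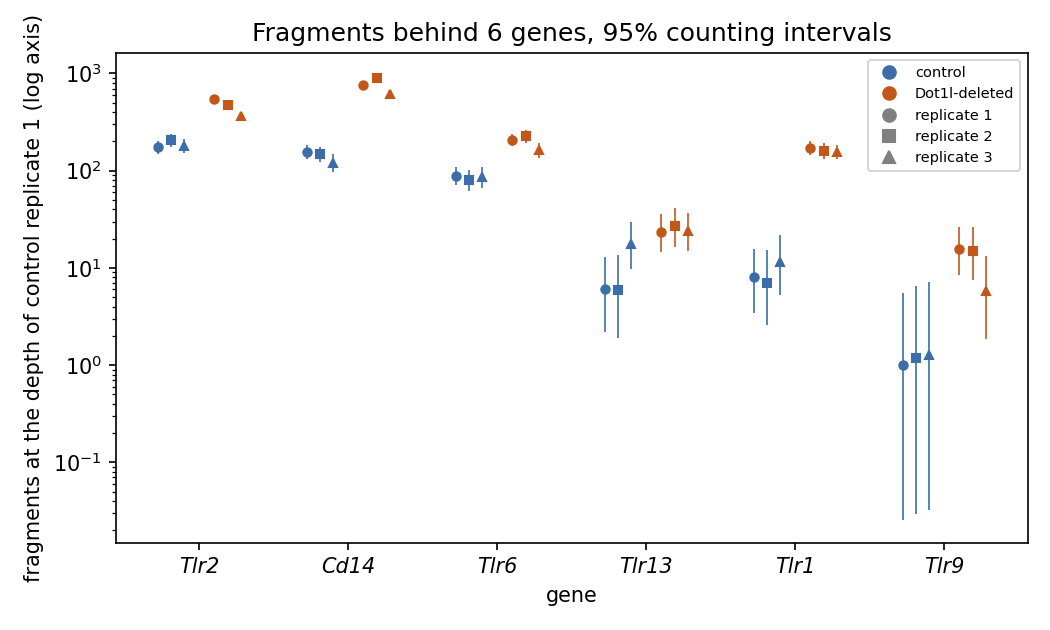
Whole fragments per library, scaled to the depth of the first control library (logarithmic axis), for the 6 genes whose values were whole multiples; bars are 95% counting intervals and colours are the groups. Tlr9 rests on 1 fragment before scaling in each control, and Cd14 on 95 or more in every library.

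Myd88, the adaptor of all these receptors, had the highest level in every library. Myd88 (ENSMUSG00000032508) was at 35.2, 34.7 and 33.8 FPKM in the controls and at 42.2, 41.4 and 30.7 FPKM after deletion. The groups overlapped: the first 2 deleted libraries were above all controls and the third was below them. The means were 34.5 ± 0.707 and 38.1 ± 6.44 FPKM, and the fitted log2 difference of Myd88 was 0.12 (SE 0.164, adjusted p = 0.630 by limma). With rescaling it was 0.30 (SE 0.0287, adjusted p = 0.000374), and without the third deleted library it was 0.27 (adjusted p = 0.00624). The call of Myd88 thus differed with the treatment of the third deleted library. In each of these fits its change was smaller than that of every other one of the 10 genes tested in it. The 3 tested genes whose pattern over the 6 libraries was nearest to that of Myd88 were Was, Ube2q1 and Dusp7 (Euclidean distances of 0.0220, 0.0264 and 0.0471 on centred log2 values). For Cd14 they were Dnmt3l, Slc24a6 and Mcpt2 (0.172, 0.196 and 0.199).

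The window of Myd88 (chr9:119340019-119340268, minus strand, GRCm38.p6) is shown because it shares a motif with Tlr6.
Myd88: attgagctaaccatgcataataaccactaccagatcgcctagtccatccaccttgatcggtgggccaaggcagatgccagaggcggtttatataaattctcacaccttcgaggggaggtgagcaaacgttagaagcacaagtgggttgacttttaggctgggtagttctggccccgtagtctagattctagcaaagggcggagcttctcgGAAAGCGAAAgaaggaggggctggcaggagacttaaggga
The capitals mark the ISRE letters, 40 to 31 bases before the start. Of the 9 windows searched, which belong to 7 genes, 6 held at least 1 of the 5 motifs, as did 25.1% of all windows. Since the motifs were chosen after these windows were seen, nothing is read from that count. Windows of Tlr4, Tlr7 and Cd14 were not searched here.

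**Figure D4:**
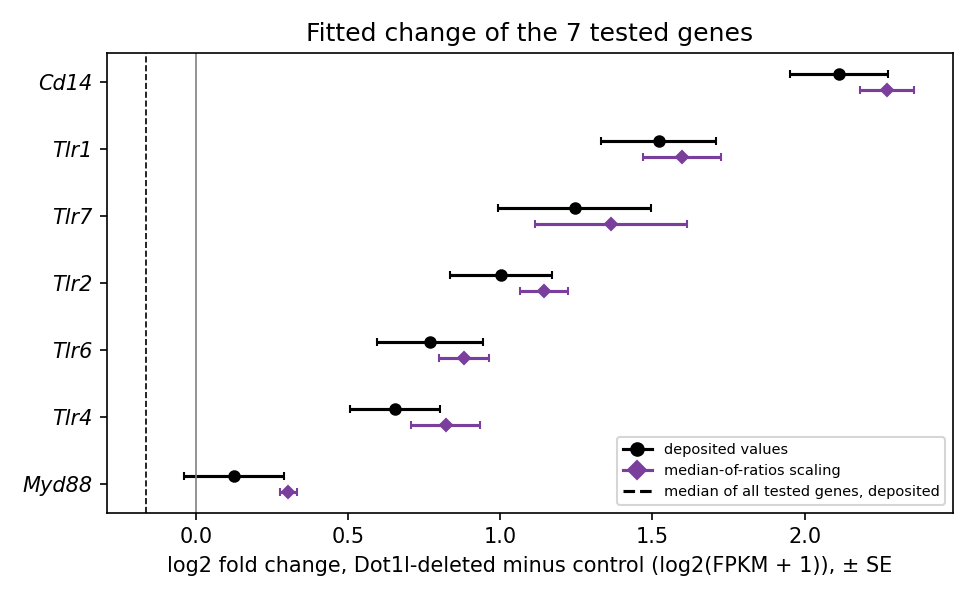
Log2 fold change (Dot1l-deleted minus control) of the 7 tested genes with standard errors, from deposited and from rescaled values. All points lie above 0, Cd14 is highest at 2.11 and Myd88 lowest at 0.12 in the deposited values.

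In order of level, the controls ran Myd88, Tlr4, Cd14, Tlr2, Tlr7, Tlr6, Tlr1, Tlr13, Tlr8 and Tlr9. Among neighbours in that order, Tlr7 and Tlr6, Tlr1 and Tlr13, Tlr13 and Tlr8, and Tlr8 and Tlr9 had overlapping libraries. After deletion the order was Myd88, Cd14, Tlr4, Tlr2, Tlr7, Tlr6, Tlr1, Tlr8, Tlr13 and Tlr9, with overlap only between Tlr2 and Tlr7 and between Tlr6 and Tlr1. Cd14 and Tlr4 had changed places, and so had Tlr8 and Tlr13.

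The 4 other Toll-like receptors listed were Tlr3, Tlr5, Tlr11 and Tlr12, and 0 of the 1 tested was called. Tlr5, the flagellin receptor, was at 1.47, 1.88 and 1.72 FPKM in the controls and at 1.53, 1.35 and 1.23 FPKM after deletion (log2 fold change -0.18, SE 0.175, adjusted p = 0.501 by limma). Its libraries overlapped, and it was the only one of the 4 that passed the filter. Tlr3, the receptor of double-stranded RNA, was at 0.00782, 0.00917 and 0 FPKM in the controls and at 0.0610, 0.159 and 0.125 FPKM after deletion, on 2 fragments in all controls together and 36 in all deleted libraries (ratio 18.9, interval 4.87 to 162). Tlr12 stood at 20 to 43 fragments in every library, and Tlr11 had 1 fragment in each group.

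Of the 17 co-receptor and trafficking genes listed, 13 were tested; 5 rose, 1 fell and 7 were not called (median log2 fold change 0.24). Unc93b1, which carries the endosomal receptors to their compartment, rose from 4.96 ± 0.661 to 32.4 ± 6.16 FPKM (log2 fold change 2.47, adjusted p = 4.29e-06 by limma). It rested on 216 to 357 fragments in the controls and on 1393 to 2066 after deletion. Slc15a3, an endosomal transporter of bacterial peptides, went from 0.412 to 4.88 FPKM (2.04 on the log2 scale), and Ctss, a protease that cleaves endosomal receptors, from 1.34 to 4.86 FPKM (1.34). Ctsb, another endosomal protease, rose from 62.1 to 107 FPKM (0.77, adjusted p = 0.00882). With rescaling 9 of the 13 rose and 1 fell. Over all tested genes, 7.43% rose and 12.2% fell on deposited values, and 23.0% and 22.3% did with rescaling. Cd180, which resembles a Toll-like receptor without a signalling domain, was not called on deposited values (0.31, adjusted p = 0.257) but was with rescaling (0.46, adjusted p = 0.00740). Its partner Ly86 was at 1 fragment over all controls and at 19 after deletion (ratio 19.98, interval 3.18 to 830).

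Of 23 tested adaptors and kinases below the receptors, 2 rose, 1 fell and 20 were not called. Their median log2 fold change was -0.15, against -0.16 over all tested genes. With rescaling 7 rose and 4 fell, and their median was 0.03. The shares over all tested genes were 7.43% rising and 12.2% falling on deposited values. With rescaling those shares were 23.0% and 22.3%. Tirap (0.25, adjusted p = 0.316) and Ticam1 (-0.14, adjusted p = 0.558), 2 further adaptors, were not called on deposited values. With rescaling Tirap was called higher (0.40, adjusted p = 0.00731) and Ticam1 was not called (0.03, adjusted p = 0.585). The kinases Irak4 (0.04), Irak1 (-0.37) and Irak2 (-0.28) and the ubiquitin ligase Traf6 (-0.36) were not called either. With rescaling Irak4 was called higher (0.22, adjusted p = 0.0411) and Irak1 lower (-0.19, adjusted p = 0.00633). Ikbke, a kinase of the interferon branch, rose from 8.48 to 22.7 FPKM, and Pik3ap1, which links Toll-like receptors to PI3 kinase, from 16.3 to 34.3 FPKM. Ticam2, an adaptor that serves TLR4, fell from 7.62 ± 0.468 to 4.93 ± 1.11 FPKM (log2 fold change -0.56, adjusted p = 0.0371 by limma). That call was lost in 7 of the 19 alternative fits, including those without any 1 of the control libraries (adjusted p = 0.0874, 0.0695 and 0.126) and without the second deleted library (0.0524). Among 16 tested negative regulators 1 fell (Dusp1, a phosphatase of MAP kinases, from 5.11 to 1.98 FPKM) and 15 were not called. Irak3, an inhibitory IRAK, was at 0.26 (adjusted p = 0.240) and with rescaling at 0.44 (adjusted p = 0.000374). With rescaling 5 of the 16 rose and 3 fell.

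Of 12 tested transcription factors, Irf7 rose from 1.88 to 7.06 FPKM, Nfkbiz fell from 9.74 to 3.15 FPKM (not called with rescaling, adjusted p = 0.0747, or without the third deleted library, 0.0533) and 10 were not called. Among those 10 were Nfkb1, from 58.1 to 40.3 FPKM (-0.53, adjusted p = 0.0545 by limma), and Irf8, from 2.82 to 4.82 FPKM (0.59, adjusted p = 0.0644). With rescaling Nfkb1 was called lower (-0.35, adjusted p = 0.000892) and Irf8 higher (0.73, adjusted p = 0.00444). With rescaling 6 of the 12 rose and 2 fell. Among all tested genes the shares were 7.43% rising and 12.2% falling, and 23.0% and 22.3% with rescaling. Of 13 tested target cytokines and enzymes, 3 rose and 3 fell, and with rescaling 6 rose and 3 fell. Cxcl10, an interferon-induced chemokine, went from 1.86 to 24.8 FPKM (3.17), and Lcn2, which is also on the neutrophil list, from 55.9 to 243 FPKM (2.09), while Il6, a cytokine that was also added to the medium as protein, fell from 34.8 to 12.9 FPKM (-1.37). Most receptors of the IL1 family also signal through MYD88, and of 6 tested, 4 rose and 1 fell (4 and 2 with rescaling). The call of Il1r1 was lost without the first control library (adjusted p = 0.0574) and without the first (0.0534) or the second deleted library (0.0517). Il1r2, a decoy that does not signal, rose from 0.772 to 9.91 FPKM, Il18r1 from 4.30 to 11.8 FPKM, and Il1rap, the shared signalling chain, fell from 14.5 to 5.08 FPKM.

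**Figure D5:**
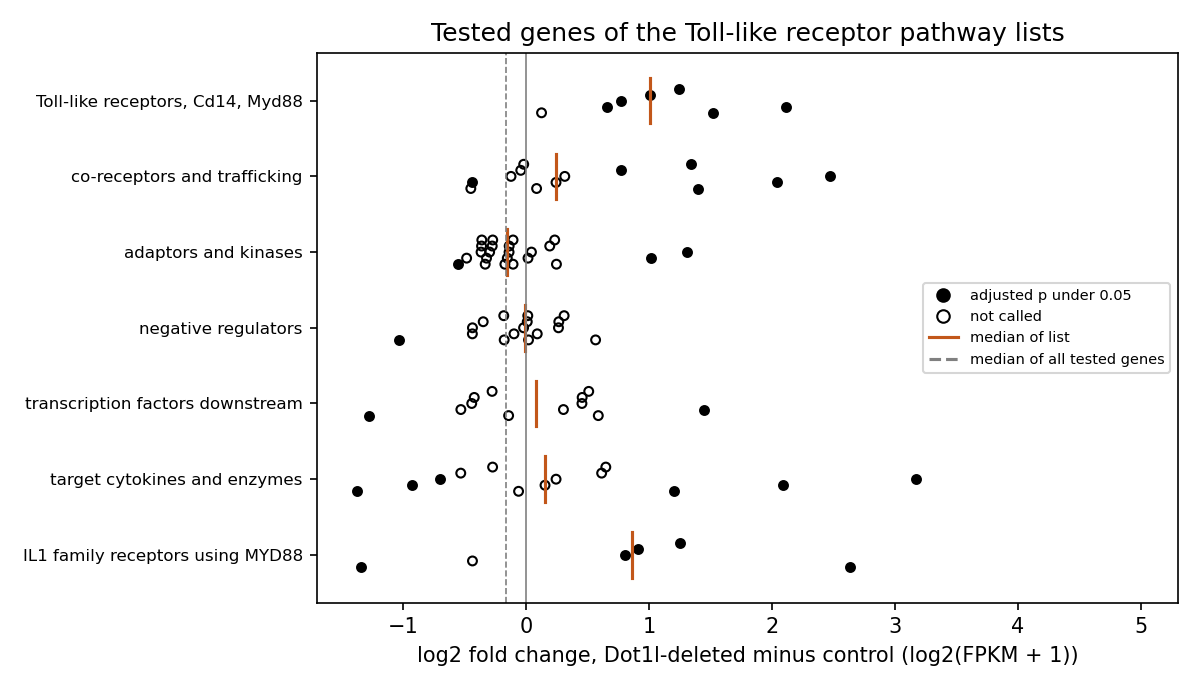
Log2 fold change (Dot1l-deleted minus control) of every tested gene in 7 lists of the pathway. Filled points have an adjusted p under 0.05, the short lines are list medians and the dashed line is the median of all tested genes.

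Markers of cell types that carry these receptors moved with the same comparison. For the counts below, the shares over all tested genes were 7.43% rising and 12.2% falling, and 23.0% and 22.3% with rescaling. Of the neutrophil markers, all 9 tested rose, and the summed level of the list was 994 to 1228 FPKM in the controls and 20627 to 24458 FPKM after deletion. Most of that sum was S100a8 and S100a9, and without them it was 93.1 to 98.9 and 554 to 646 FPKM. Ly6g, a defining marker, was at 0 in all controls and at 2.11, 0.961 and 0.813 FPKM after deletion, and Mmp9 was at 0 in all libraries but the first deleted one (0.0486 FPKM). Of 8 tested monocyte and macrophage markers 5 rose and 1 fell (6 and 1 with rescaling), and C1qa was at 0 in every library. The marker that fell was Ccr2, from 47.4 to 26.3 FPKM (adjusted p = 0.00427 by limma). The sums of this list were 203 to 227 and 989 to 1307 FPKM. Ly6c2 and Lyz2 made up most of the sum after deletion, with means of 562 and 383 FPKM against 40.2 and 53.4 FPKM in the controls. The summed B cell markers were at 1.41 to 1.85 and 4.16 to 5.66 FPKM; Ms4a1 and Cd22 were at 0 in every library, and Cd79b alone was tested and rose. Of 5 tested dendritic cell markers 1 rose and 3 fell (2 and 3 with rescaling), with sums of 149 to 165 and 72.1 to 117 FPKM, and Siglech of plasmacytoid dendritic cells was at 0. The lower sum rested mainly on Flt3, with means of 66.5 FPKM in the controls and 4.01 FPKM after deletion. Bst2, the largest part of the sum after deletion, had means of 76.0 and 88.6 FPKM, and its libraries overlapped. It was not called on deposited values (0.18, adjusted p = 0.596 by limma) but was called higher with rescaling (0.36, adjusted p = 0.0271). Markers of the labelled progenitors were present in the controls: Cd34 was at 738 to 765 FPKM there and at 100 to 143 FPKM after deletion, and Kit at 111 to 125 and 44.1 to 66.8 FPKM. Of the 9 progenitor markers 4 rose, among them Mpo and Fcgr3, and 3 fell (5 and 4 with rescaling). The part of these cell types in the levels of the receptor genes was not tested.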

How the data were processed

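RNA of 3 control and 3 Dot1l-deleted libraries was sequenced with a stranded mRNA kit, per the labels' protocols. The authors deposited FPKM, with 1 value for each Ensembl gene in each library. The submitters' processing notes name the tools CASAVA (1.8.2), GSNAP, SAMtools and Cuffdiff and the build mm9, without their role or order. For annotation and strand use in counting, nothing is given in the sources used here. The 378 genes with the placeholder 999999999 in any library were left out.

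Genes averaging at least 1 FPKM over the 6 libraries entered limma 3.58.1 (R 4.3.3, eBayes with trend) as log2(FPKM + 1), with group as the only term. Tests were two-sided, with Benjamini-Hochberg adjustment over all 11924 genes. The fit was tested on simulated data. The simulated noise was independent between genes and shifted no library as a whole, so that test does not cover the third deleted library. Rescaling used median-of-ratios factors. The absolute depth of the libraries is unknown.

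The members and the 13 gene lists were chosen with earlier results of these data known. Named genes were Dot1l, the 10 genes, the other Toll-like receptors and direct partners of the pathway. Others came from the up to 4 genes with the smallest adjusted p per list, and not all of these were named. The 3 genes nearest in pattern to those with the highest and the lowest change were named as well. Ctsb, Kit, Ly6g, Mmp9, Ltf, Retnlg, Csf1r, Ccr2, Cd74, Ly6d, Bst2, Ccl2, Il1r1 and the genes listed at 0 were named after their values were seen. Promoter windows came from RefSeq (GRCm38.p6), with 9 starts of 7 genes.

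Replicate numbers occur in both groups, but the labels pair no samples, so the main fit had no block. Alternatives covered the pseudocount (0.1 and 5), the filter, scaling, variance model, sample weights, the block, summed symbols and each library left out.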

Additional observations from a re-analysis of the deposited data

How the results depend on the processing

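Over all alternatives but 1, 5 to 7 of the 10 genes were called, each as higher. Without a filter and with median-of-ratios scaling, a setting chosen after seeing the data, 10 were called. Leaving out 1 library at a time gave 5 to 6: Tlr4 lost its call without the first control library, and Tlr1 was not tested with any deleted library left out, while Myd88 was called without the third deleted library. In the lists, leaving out 1 library also ended the calls of Ccl2 (adjusted p = 0.0659 and 0.0505 without the first or the second control library) and Ly6d (0.0629 and 0.0795), and Cxcl3 was not tested with any deleted library left out, nor Retnlg without the second. The number of genes called over the whole table was 2345 on deposited values, 5401 with median-of-ratios scaling, 5608 with quantile normalization, 5716 with sample weights, 4559 with median-of-ratios scaling and without the third deleted library, and 6180 with that scaling and no filter. Leaving out 1 library gave 1819 to 4558, the highest without the third deleted library. The cause was not tested. The log2 ratio of Tlr7 to Tlr8 reversed to -0.60 with a pseudocount of 0.1 and to -2.82 with none, and that of Tlr9 to Tlr7 reversed from -1.09 to 1.39 with none. Tlr9 rested on 1 fragment per control library, which limits any ratio with it.

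With the replicate number as a block, 2953 genes were called, and 4461 with the block and median-of-ratios scaling; 6 and 7 of the 10 genes were called. Deviations of same-numbered libraries correlated at -0.03, -0.04 and 0.01. No control library correlated best with the deleted library of its own number. With 3 libraries a group, this cannot tell whether same-numbered libraries share a culture or an animal, which the labels do not say.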
